A study of Homo sapiens with 12 samples.

Results

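The AP-1 and immediate early genes described here are 10 genes, FOS, FOSB, FOSL1, FOSL2, JUN, JUNB, JUND, EGR1, EGR2 and IER2, which were picked by gene name from the 58302 genes listed for each library. The 12 RNA sequencing libraries come from 769-P and ACHN cells, both established human renal carcinoma cell lines that the labels call clear cell renal cell carcinoma (ccRCC) cells. Each line was transfected for 48 h with siRNA against NUF2 (si-NUF2) or with control siRNA (si-NC), which gives 4 groups of 3 libraries, each labelled repeat 1 to 3. NUF2 encodes a subunit of the kinetochore complex that holds spindle microtubules in mitosis, and the study asked what its loss does to gene expression in ccRCC cells. The si-NUF2 of the study was a mixture of siRNAs with different target sites in NUF2. All 4 groups underwent transfection, none was left untransfected, and nothing in the labels says that the repeats were separate cultures, so p-values measure only the spread between these libraries.

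AP-1 is a dimer of basic leucine zipper proteins. Fos proteins bind DNA only when paired with a Jun protein, whereas Jun proteins can also pair with each other. FOS, FOSB, JUN, JUNB, EGR1, EGR2 and IER2 are classic immediate early genes: serum, growth factors and stress switch them on within minutes through ERK, p38 and JNK signaling, ternary complex factors with SRF, and CREB/ATF factors, and their transcripts decay quickly. FOSL1 (Fra-1) and FOSL2 (Fra-2) accumulate later and persist in cells with sustained ERK signaling, JUND is expressed at a steadier level, and EGR1 and EGR2 are zinc finger factors outside AP-1.

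Sequence just upstream of the transcription start is shown for the 7 genes with a stretch that holds an element through which these signals are known to act. The stretches run from 210 to 41 bases before the start, come from RefSeq on GRCh38.p14 and are written 5′ to 3′ on the strand of the gene. They lie at chr5:138465269-138465438 (forward strand, EGR1), chr10:62816407-62816576 (reverse, EGR2, the one of its 3 windows that holds such an element), chr14:75278618-75278787 (forward, FOS), chr19:45467786-45467955 (forward, FOSB), chr2:28392648-28392817 (forward, FOSL2), chr1:58784088-58784257 (reverse, JUN) and chr19:18281663-18281832 (reverse, JUND). RefSeq starts are not the gene bounds of GENCODE given below, so the EGR2, FOSL2 and JUN stretches lie inside those bounds and that of FOS overlaps its start. Capitals mark the half-site of the cAMP response element (TGACGT), its full palindrome (TGACGTCA, which contains the half-site on both strands), the JUN promoter variant of the AP-1 site (TGACATCA), and the CArG box bound by SRF, each searched on both strands.
EGR1: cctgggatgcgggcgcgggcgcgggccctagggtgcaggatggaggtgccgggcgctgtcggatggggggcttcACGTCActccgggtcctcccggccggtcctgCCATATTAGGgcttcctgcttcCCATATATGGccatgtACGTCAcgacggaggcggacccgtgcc
EGR2: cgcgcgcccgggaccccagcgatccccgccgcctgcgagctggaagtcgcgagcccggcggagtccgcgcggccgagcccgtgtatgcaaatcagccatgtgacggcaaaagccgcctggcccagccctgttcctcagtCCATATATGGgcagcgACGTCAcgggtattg
FOS: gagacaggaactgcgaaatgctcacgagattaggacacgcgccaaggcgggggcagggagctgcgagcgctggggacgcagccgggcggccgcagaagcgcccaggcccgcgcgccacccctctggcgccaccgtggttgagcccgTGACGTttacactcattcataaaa
FOSB: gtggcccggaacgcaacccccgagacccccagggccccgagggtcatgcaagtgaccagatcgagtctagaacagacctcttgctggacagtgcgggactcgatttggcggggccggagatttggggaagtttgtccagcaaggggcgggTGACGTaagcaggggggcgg
FOSL2: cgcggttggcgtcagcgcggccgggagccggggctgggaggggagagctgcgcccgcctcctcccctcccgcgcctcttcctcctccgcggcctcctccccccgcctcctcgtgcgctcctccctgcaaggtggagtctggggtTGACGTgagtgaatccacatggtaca
JUN: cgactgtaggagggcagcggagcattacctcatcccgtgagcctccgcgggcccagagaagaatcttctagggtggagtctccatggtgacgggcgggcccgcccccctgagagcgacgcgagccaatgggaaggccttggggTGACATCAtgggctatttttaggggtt
JUND: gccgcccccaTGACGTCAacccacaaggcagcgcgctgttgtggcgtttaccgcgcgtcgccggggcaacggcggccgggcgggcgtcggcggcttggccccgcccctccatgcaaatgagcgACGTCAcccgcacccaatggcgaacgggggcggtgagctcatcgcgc
The 9 genes with a window (250 bases before to 50 after the start) had 11 windows, 3 of them of EGR2. TGACGT was found in 6 of these 11, each of a different gene, against 7.98% of all 35116 windows. The CArG box, in 1.29% of all windows, was found in EGR1 and EGR2. JUND alone held the full palindrome (1.85% of all windows), JUN alone held TGACATCA (2.61%), and FOSL2 held TGACTCA, the canonical AP-1 site (4.95%), at bases 5 to 11 after the start. The windows of IER2 and JUNB held none of these letters, and FOSL1 had no window. A match describes letters and is not evidence of binding.

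The late Fos family members carried nearly all Fos family RNA. Values are FPKM, the read density per exon length and library size. Comparing genes assumes that these lengths, 1887 bases for FOSL1 and 7157 for FOSL2, match the transcripts expressed, which was not tested. FOSL1 and FOSL2 together made up 98.2% to 99.7% of summed Fos family FPKM in each of the 12 libraries. In 769-P cells FOSL1 alone held 75.5% to 86.3%, while in ACHN cells FOSL1 held 44.9% to 60.5% and FOSL2 39.0% to 54.4%. Within the Jun family JUND held 39.1% to 64.3% in ACHN and 17.1% to 44.2% in 769-P cells, and JUNB held 31.7% to 37.3% in 769-P but only 6.79% to 18.2% in ACHN cells. Fos family FPKM averaged 151 ± 42.9 and Jun family FPKM 160.1 ± 15.1 in 769-P cells with si-NC (SD, n = 3), and 222 ± 46.2 and 194 ± 76.6 in ACHN cells with si-NC.

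**Figure D1:**
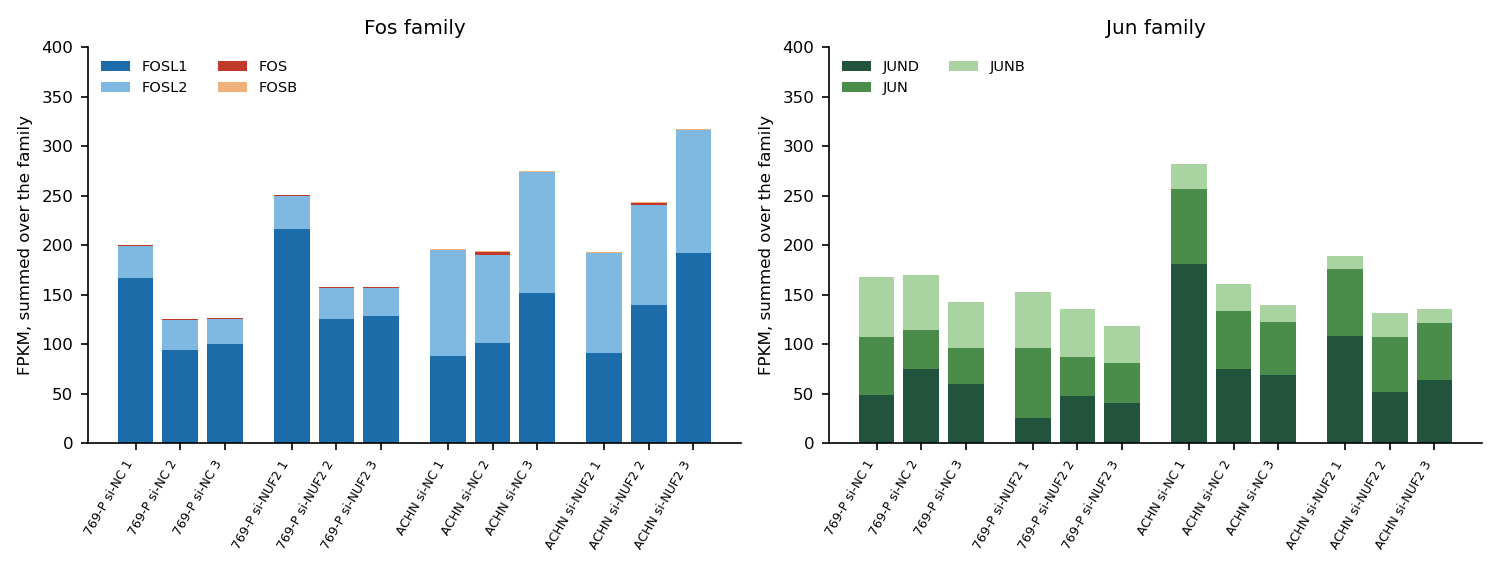
Stacked bars show FPKM of the 4 Fos genes (left) and the 3 Jun genes (right) in each of the 12 libraries, labelled by line, siRNA and repeat number. FOS and FOSB are barely visible against FOSL1 and FOSL2, and the FOSL2 share is larger in ACHN than in 769-P cells.

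Ordered by mean level with si-NC, 769-P cells ran FOSL1, JUND, JUNB, JUN, FOSL2, IER2, EGR1, FOS, FOSB and EGR2. The ranges of the 3 libraries overlapped between the neighbours JUND and JUNB, JUNB and JUN, IER2 and EGR1, and FOSB and EGR2, and did not overlap between the other neighbours. In ACHN cells with si-NC the order was FOSL1, JUND, FOSL2, JUN, JUNB, EGR1, IER2, FOSB, FOS and EGR2. There the ranges separated only FOSL2 from JUN, JUN from JUNB and IER2 from FOSB.

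Several facts about the libraries bear on all results. In 769-P cells NUF2 itself averaged 18.3 ± 0.951 FPKM with si-NC and 3.68 ± 0.602 with si-NUF2 (SD, n = 3). ACHN cells had 13.8 ± 1.94 with si-NC and 3.85 ± 1.53 with si-NUF2, and groups did not overlap in either line. NUF2 fell by 2.29 on the log2 scale in 769-P (adjusted p = 0.0013) and its value was −1.89 for ACHN, where the adjusted p was 0.235 without and 0.0125 with the repeat number as a block. Recovered reads numbered 26638247 to 35018273 per library. Libraries with the same repeat number deviated together from their group means (769-P r of 0.193 to 0.357, ACHN r of 0.463 to 0.734). The numbers were therefore taken to pair the libraries, which the labels do not state. For members tested with si-NUF2, adjusted p-values are given with and without the block. Of the epithelial marker list 7 of 10 genes reached 1 FPKM in each line, with PAX8 at 44.7 to 70.6 FPKM in 769-P and at 57.1 to 199 for ACHN, but CA9, a hallmark of ccRCC, stood at 0.121 FPKM or less in all libraries, and LRP2 was listed at 0 in all ACHN libraries. Of 6 leukocyte and 5 endothelial markers none reached 1 FPKM. Of 5 fibroblast markers 2 did, in ACHN cells only (COL1A1 and PDGFRB), and the list summed to 1.40 to 5.08 FPKM with si-NC and 1.52 to 6.21 with si-NUF2.

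A pair of libraries in each line stood apart in EGR1 and some other members, with either siRNA. In ACHN cells repeat 2 had far more EGR1 and FOS RNA than repeats 1 and 3, and in 769-P cells repeat 1 had more EGR1, FOSL1 and JUN RNA than repeats 2 and 3. Among members above 0.5 FPKM, 5 of 7 in 769-P repeat 1 lay above all other libraries of the line and 0 below. Of all genes tested 10.4% lay above there. In 769-P repeat 3, 3 of 7 lay below (6.74% of genes) and 0 above. In ACHN repeat 2, 3 of 9 lay above (15.9%), EGR1, FOS and IER2, and 1 below (18.2%). FOS reached 0.5 FPKM in that ACHN pair only, so its place in this count follows from the filter. It was not among the genes tested in ACHN cells, to which the percentages refer. ACHN repeat 1 had 2 above (18.1%) and 2 below (15.6%), and repeat 3 had 2 (11.3%) and 1 (10.9%). The siRNA fits without these pairs, with no block, are therefore given for FOSL1, JUND, EGR1 and IER2. For every member the levels by library follow, in the order of repeats 1, 2 and 3.

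**Figure D2:**
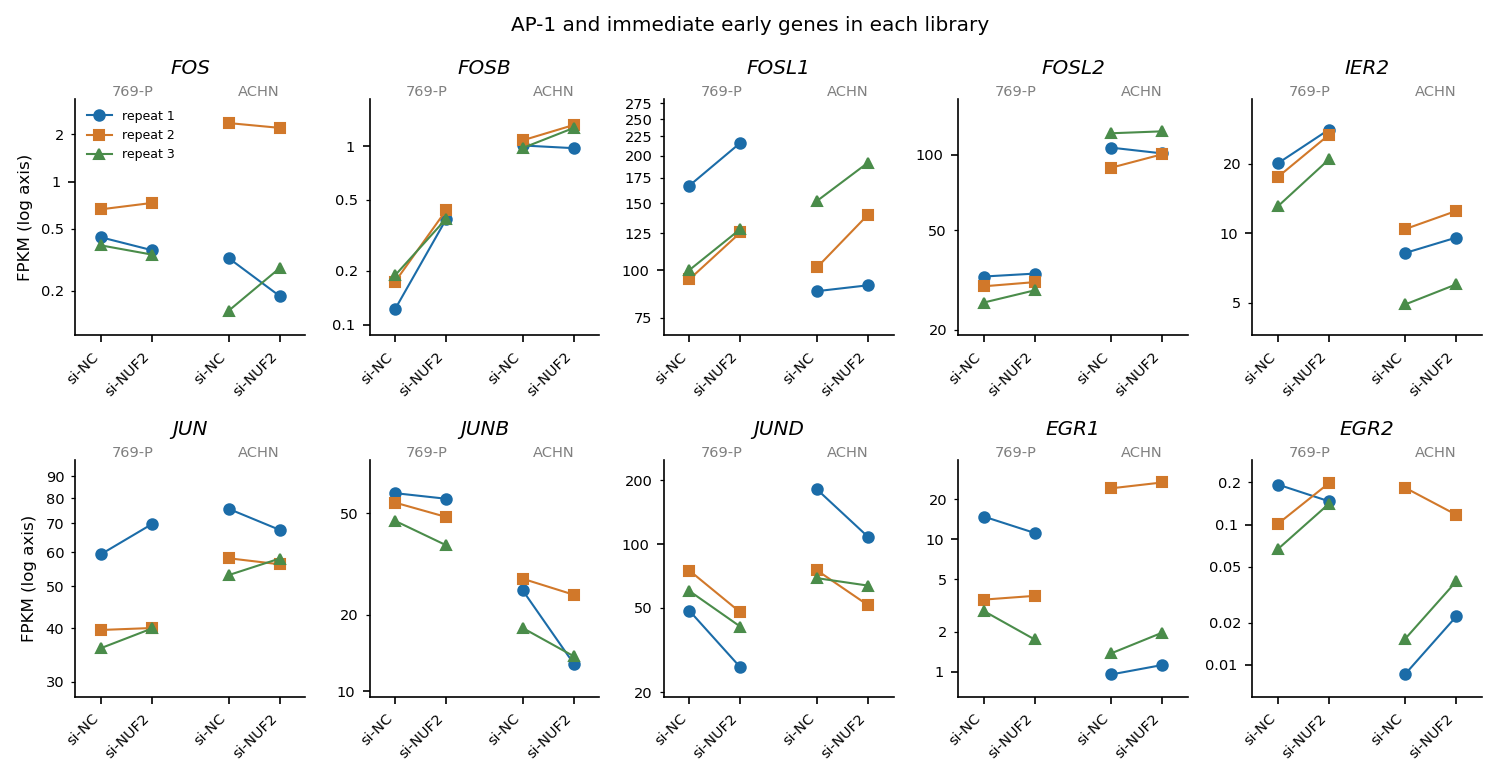
Each panel shows FPKM of 1 gene on a log axis with its own range, in 769-P (left) and ACHN cells (right). Points are libraries and lines join si-NC and si-NUF2 libraries of the same repeat number. EGR1 and FOS spread by repeat number, IER2 lines all slope upward and JUND lines all slope downward.

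FOSL1 (ENSG00000175592) has 1887 exon bases in GENCODE 29 between 65892049 and 65900573 of chromosome 11 (GRCh38, reverse strand). In 769-P cells its level was 167, 94.7 and 100.1 FPKM with si-NC and 217, 126 and 128 with si-NUF2. In ACHN cells it was 88.1, 102 and 152 with si-NC and 91.3, 140.0 and 192 with si-NUF2. The si-NUF2 library was the higher one in all 3 pairs of each line, but the groups overlapped, since 769-P repeat 1 and ACHN repeat 3 were high with either siRNA. FOSL1 passed the test in 769-P cells with the block, with a log2 fold change of 0.39 (95% CI 0.30 to 0.48, adjusted p = 0.00581), and did not pass without it (95% CI −0.27 to 1.06, adjusted p = 0.416). Without both repeat 1 libraries, and with no block, the value was 0.40 (adjusted p = 0.0434). In bulk RNA of this kind, more cells that express a gene and more RNA per cell cannot be told apart. In ACHN cells the FOSL1 value was 0.28 (95% CI 0.08 to 0.49 with the block), with an adjusted p of 0.0809 with and 0.949 without the block. Without both repeat 2 libraries, and with no block, the ACHN value was 0.20 (95% CI −1.07 to 1.48).

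FOSL2 (ENSG00000075426), at 28392448 to 28417312 on the forward strand of chromosome 2, varied little within groups and much between the lines. In 769-P cells its level was 32.6, 29.8 and 25.7 FPKM with si-NC and 33.5, 31.0 and 28.7 with si-NUF2. The ACHN libraries had 107, 88.7 and 122 with si-NC and 101, 100.3 and 124 with si-NUF2. No ACHN library overlapped any 769-P library. The 769-P log2 fold change was 0.10 (95% CI −0.02 to 0.22 with the block, adjusted p = 0.185) and that of ACHN was 0.04 (95% CI −0.10 to 0.19, adjusted p = 0.637), so with the block changes beyond 0.22 on the log2 scale lie outside both intervals. Without the block the intervals were −0.16 to 0.35 in 769-P (adjusted p = 0.605) and −0.32 to 0.40 in ACHN cells (adjusted p = 0.990).

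FOSB (ENSG00000125740), on chromosome 19 from 45467995 to 45475179 on the forward strand, gave only 20 to 253 reads per library. In 769-P cells its level was 0.122, 0.174 and 0.189 FPKM with si-NC and 0.390, 0.438 and 0.392 with si-NUF2. These groups did not overlap, and the ratio of their means was 2.51. Every 769-P library lay below the filter of 0.5 FPKM, so FOSB was not among the genes tested there. With no filter its log2 fold change was 0.97 (95% CI 0.40 to 1.54, adjusted p = 0.108). In ACHN cells the level was 1.01, 1.08 and 0.978 FPKM with si-NC and 0.975, 1.32 and 1.27 with si-NUF2, with overlap and a log2 fold change of 0.19 (95% CI −0.16 to 0.53 with the block, adjusted p = 0.397). Without the block that interval was −0.25 to 0.62 (adjusted p = 0.921). The difference between the lines in response was −0.77 (95% CI −1.25 to −0.28 with the block, ACHN less 769-P) and did not pass the test (adjusted p = 0.111 with the block and 0.952 without).

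FOS (ENSG00000170345, chromosome 14, 75278774 to 75282230, forward strand) was low in 10 of the 12 libraries. Its level was 0.440, 0.664 and 0.391 FPKM with si-NC and 0.364, 0.730 and 0.341 with si-NUF2 in 769-P cells. In ACHN cells it was 0.325, 2.36 and 0.149 with si-NC and 0.186, 2.20 and 0.279 with si-NUF2. Repeat 2 was the highest in every group, at 247 and 295 reads in ACHN cells against 17 to 33 reads in the other 4 ACHN libraries, and the mean of the ACHN repeat 2 pair was 9.72 times that of the others. FOS did not pass the filter in the fit of either line. With no filter, its 769-P log2 fold change with si-NUF2 was −0.07 (95% CI −0.90 to 0.75), and that of ACHN was −0.02 with an interval (95% CI −2.79 to 2.75) that holds changes of several fold.

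JUND (ENSG00000130522) is a single exon of 1863 bases on the reverse strand of chromosome 19, from 18279760 to 18281622. In 769-P cells its level was 48.5, 75.03 and 60.1 FPKM with si-NC and 26.2, 47.6 and 40.8 with si-NUF2. The ACHN libraries had 181, 75.2 and 69.1 with si-NC and 108, 51.5 and 63.7 with si-NUF2. All si-NUF2 libraries of 769-P lay below all si-NC libraries, the si-NUF2 library was the lower one in all 3 pairs of each line, and ACHN repeat 1 stood out as high with either siRNA. JUND fell by 0.69 on the log2 scale in 769-P cells with the block (95% CI −0.88 to −0.49, adjusted p = 0.00738) and did not pass the test without it (adjusted p = 0.125). Without both repeat 1 libraries the value was −0.59 (95% CI −0.93 to −0.24, adjusted p = 0.0716). In ACHN cells it was −0.47 (95% CI −0.77 to −0.16, adjusted p = 0.0654 with the block). Without the block the ACHN interval was −1.53 to 0.59 (adjusted p = 0.921). Without both repeat 2 libraries, and with no block, the ACHN value was −0.42 (95% CI −1.90 to 1.06).

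JUN (ENSG00000177606, chromosome 1, 58780788 to 58784327, reverse strand) is also a single exon. Its level in 769-P cells was 59.3, 39.6 and 35.9 FPKM with si-NC and 69.7, 40.0 and 39.9 with si-NUF2. In ACHN cells it was 75.6, 58.1 and 53.0 with si-NC and 67.6, 56.2 and 57.9 with si-NUF2. Repeat 1 was the highest in every group of both lines, and siRNA groups overlapped in both. The 769-P log2 fold change was 0.15 (95% CI 0.01 to 0.28 with the block, adjusted p = 0.0966) and that of ACHN −0.03 (95% CI −0.18 to 0.13 with the block, adjusted p = 0.808). Without the block the intervals were −0.49 to 0.78 in 769-P (adjusted p = 0.770) and −0.39 to 0.34 in ACHN cells (adjusted p = 0.995).

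JUNB (ENSG00000171223, chromosome 19, 12791496 to 12793315, forward strand, single exon) shares 259 exon bases with HOOK2 on the opposite strand. Because how strand was counted is not given in the sources used here, reads there cannot be assigned with certainty, although HOOK2 reached only 3.84 FPKM. JUNB stood at 60.1, 55.1 and 46.7 FPKM with si-NC and 57.1, 48.4 and 37.5 with si-NUF2 in 769-P cells. The ACHN libraries had 24.9, 27.7 and 17.7 with si-NC and 12.8, 23.9 and 13.7 with si-NUF2. The si-NUF2 library was the lower one in all 6 pairs, and the groups overlapped within both lines. The 769-P log2 fold change was −0.18 (95% CI −0.32 to −0.04, adjusted p = 0.0661) and that of ACHN −0.51 (95% CI −0.87 to −0.14, adjusted p = 0.0805), both with the block, and did not pass the test. Without the block the intervals were −0.57 to 0.21 in 769-P (adjusted p = 0.534) and −1.21 to 0.20 in ACHN cells (adjusted p = 0.780).

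EGR1 (ENSG00000120738, chromosome 5, 138465490 to 138469315, forward strand), whose stretch above holds both CArG boxes, spread widely within groups. In 769-P cells its level was 14.8, 3.498 and 2.87 FPKM with si-NC and 11.1, 3.73 and 1.75 with si-NUF2. In ACHN cells it was 0.954, 24.1 and 1.38 with si-NC and 1.12, 26.7 and 1.97 with si-NUF2. The high libraries were repeat 1 of 769-P, at 4.37 times the mean of the others, and repeat 2 of ACHN, at 18.7 times. The 769-P log2 fold change was −0.32 (adjusted p = 0.18 with the block and 0.831 without), and that of ACHN was 0.28 (adjusted p = 0.0977 and 0.995). Without a block the 95% CI in ACHN cells ran from −3.61 to 4.18, and with it from 0.06 to 0.51. Without the ACHN repeat 2 pair the value was 0.36 (95% CI −0.60 to 1.33), and without the 769-P repeat 1 pair it was −0.28 (95% CI −1.15 to 0.59).

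EGR2 (ENSG00000122877, chromosome 10, 62811996 to 62919900, reverse strand) gave 1 to 26 reads per library and did not pass the filter. It stood at 0.193, 0.101 and 0.0670 FPKM with si-NC and 0.147, 0.198 and 0.141 with si-NUF2 in 769-P cells. In ACHN cells repeat 2 had 26 reads with si-NC (95% exact Poisson interval 17.0 to 38.1) and 15 with si-NUF2 (8.40 to 24.7), and the other 4 libraries had 1 to 5. With no filter the 769-P log2 fold change was 0.29 (95% CI −0.40 to 0.98, adjusted p = 0.657), and the ACHN value was 0.02 (95% CI −1.05 to 1.09, adjusted p = 0.999), so a difference between siRNAs was not detectable at this depth.

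IER2 (ENSG00000160888, chromosome 19, 13150415 to 13154908, forward strand), a nuclear protein induced with the other immediate early genes, was the member that passed the test in both lines with the block. Its level in 769-P cells was 20.1, 17.5 and 13.1 FPKM with si-NC and 28.2, 26.7 and 20.9 with si-NUF2. The ACHN libraries had 8.21, 10.4 and 4.91 with si-NC and 9.58, 12.5 and 6.005 with si-NUF2. All si-NUF2 libraries lay above all si-NC libraries in 769-P cells, while in ACHN cells the groups overlapped and the si-NUF2 library of every pair was higher, by 0.22, 0.26 and 0.28 on the log2 scale. IER2 rose by 0.60 on the log2 scale in 769-P cells (95% CI 0.45 to 0.74, adjusted p = 0.00621 with the block and 0.0834 without). The ACHN value was 0.26 (95% CI 0.13 to 0.38, adjusted p = 0.0368 with and 0.971 without the block). Without both repeat 1 libraries, and with no block, the 769-P value was 0.66 (95% CI 0.20 to 1.12, adjusted p = 0.101). Without both repeat 2 libraries the unblocked ACHN value was 0.26 (95% CI −0.69 to 1.22, adjusted p = 0.933). The response was 0.33 lower in ACHN on the log2 scale, a difference that did not pass its test (95% CI −0.49 to −0.17, adjusted p = 0.069 with the block and 1.00 without). IER2 shares 946 exon bases with an antisense gene, AC011446.2, which was listed at 0 in all libraries.

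Without the block none of the 7 members tested in 769-P cells passed the test, against 10.1% of all genes tested, and none of the 8 tested in ACHN cells did, where no gene passed (0.0%). By limma, 1211 of the 15109 genes tested in ACHN cells had an unadjusted p under 0.05. With the block 3 of 7 passed in 769-P cells, against 27.7% of all genes: FOSL1 and IER2 were higher (13.8% of genes were) and JUND was lower (13.8%). In ACHN cells IER2 alone of 8 passed, against 12.3% of genes (6.44% higher). The difference in response between lines passed for 0 of 9 members, against 0.0% of genes without and 1.31% with the block. By limma-voom on recovered reads with the block, 6 of 7 members passed in 769-P (all but FOSL2), against 36.6% of all genes, and 4 of 8 in ACHN cells (FOSL1, IER2, JUNB and JUND), against 23.6%. A share near that of all genes is not a result about the members. The exact permutation test on 3 against 3 libraries cannot give a p below 0.1, which FOSB, JUND and IER2 reached in 769-P cells.

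The direction was shared by all 3 pairs for 6 of 7 tested members in 769-P cells (63.0% of all genes) and for 5 of 8 in ACHN cells (54.9%). Groups did not overlap for 2 of 7 members in 769-P cells, JUND and IER2 (33.3% of genes), and for none of 8 in ACHN cells (14.3%). Over tested members the median log2 fold change was 0.10 for 769-P and 0.12 for ACHN, beside −0.01 over all genes tested in each line.

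**Figure D3:**
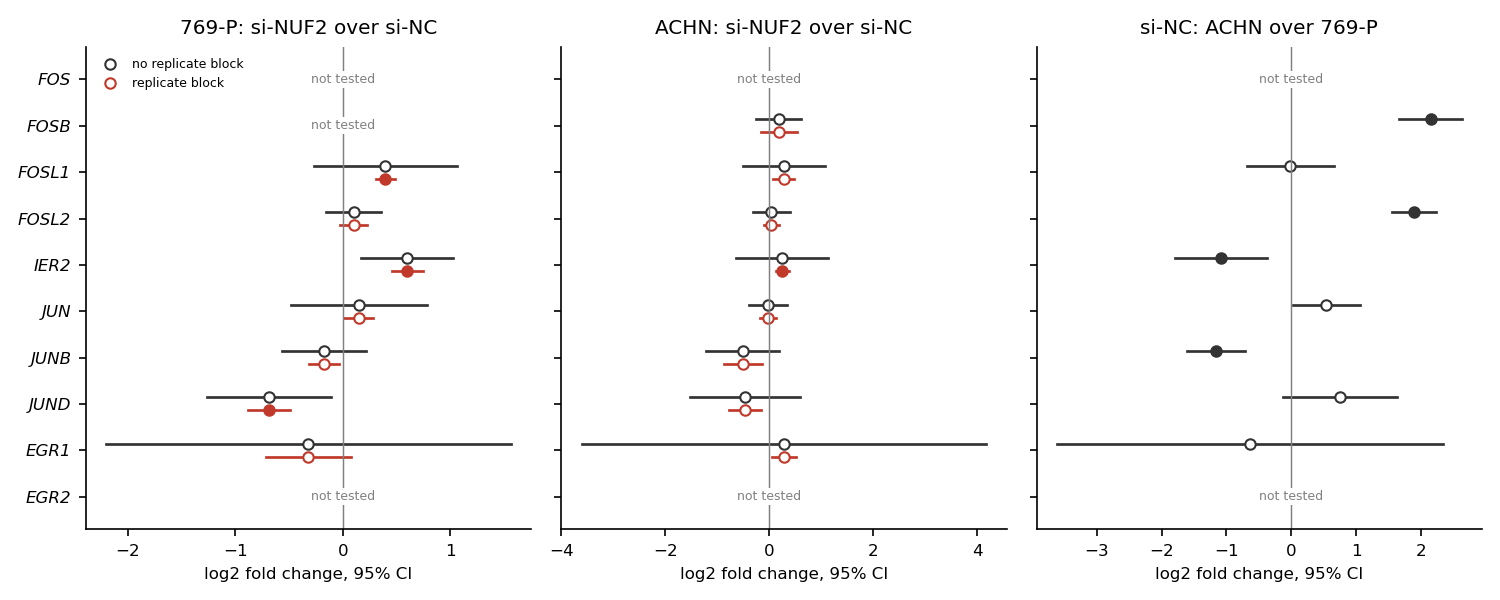
Points are log2 fold changes with 95% confidence intervals from limma, without (black) and with (red) the repeat number as a block, and filled points passed an adjusted p of 0.05. With the block FOSL1, IER2 and JUND passed in 769-P cells, IER2 passed in ACHN cells, and between the lines, where only the unblocked fit is drawn, FOSB, FOSL2, IER2 and JUNB passed.

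How far the repeat number, rather than the siRNA, ordered the libraries was described by splitting the sum of squares of log2(FPKM + 0.1) over the 6 libraries of a line. In ACHN cells the repeat number held 99.4% for EGR1, 96.9% for FOS and 92.2% for IER2, beside a median of 70.2% over all genes tested. Below that median were JUNB (50.6%) and FOSB (38.8%). In 769-P cells the repeat number held 95.3% for EGR1, 94.8% for JUN, 94.3% for FOS and 78.6% for FOSL1, beside a median of 41.4%. Below it there were EGR2 (36.2%), IER2 (35.8%) and FOSB (3.85%). The siRNA held the larger part only in 769-P cells, for FOSB (93.8%), IER2 (63.1%) and JUND (55.2%), beside a median of 34.0%. FOSB gave only 20 to 70 reads per library there. FOSB, FOS and EGR2 did not pass the filter in 769-P cells, so none of them is among the genes of the 769-P medians. FOS did not pass it in ACHN cells either, so it is not among the genes of the ACHN median. For EGR2, at few reads, no part dominated in 769-P cells.

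**Figure D4:**
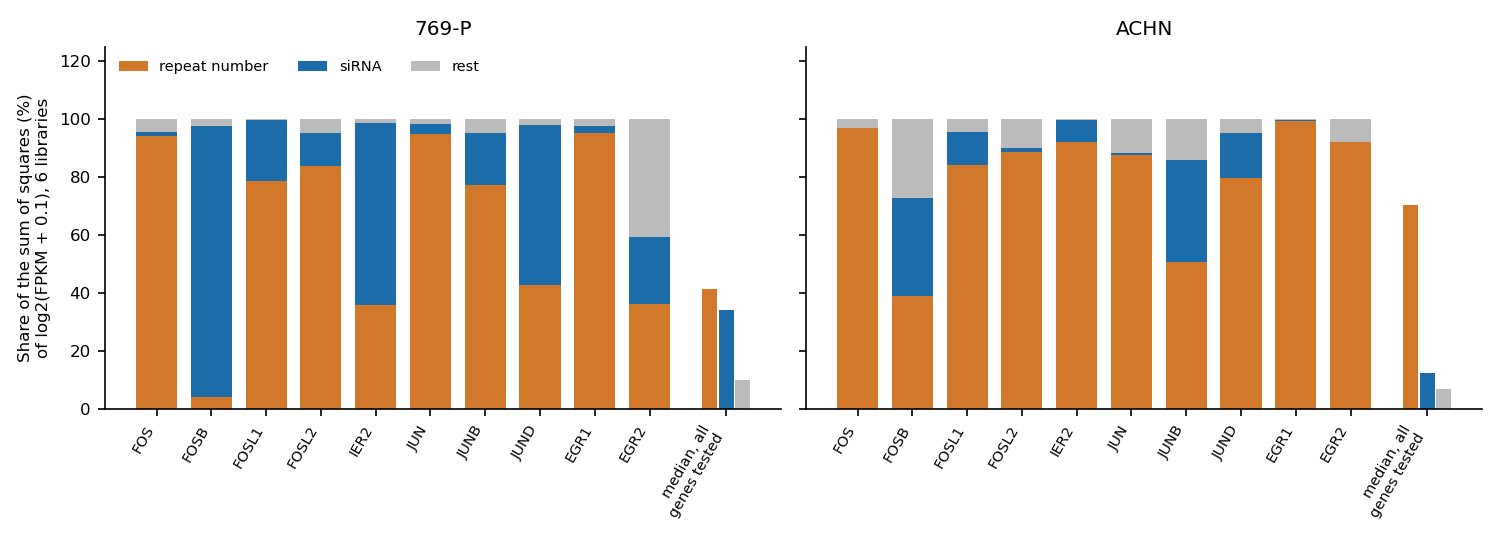
Stacked bars give the percent of the sum of squares of log2(FPKM + 0.1) over 6 libraries that goes with the repeat number (orange), the siRNA (blue) and the rest (grey) in 769-P (left) and ACHN cells (right), and the 3 narrow bars give the medians of each over all genes tested. EGR1 and FOS are almost wholly orange in both lines, whereas FOSB and IER2 are mostly blue in 769-P cells.

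The same pairs of libraries differed in other genes of these pathways. In ACHN cells repeat 2 had 3.04 to 3.31 FPKM of IL6 and 2.92 to 3.43 of CXCL8, cytokine genes with known AP-1 sites, while the other 4 libraries had 193 to 303 and 235 to 618. Of 16 AP-1 target genes above 0.5 FPKM, 10 lay lower in both repeat 2 libraries of ACHN than in all 4 others, among them CD44, PLAUR and CCND1, and 1 lay higher, beside 18.2% lower and 15.9% higher of all genes tested. Such genes also lay apart in ACHN repeat 1, where 7 of 17 lay higher and 3 lower, beside 18.1% and 15.6% of all genes. In ACHN repeat 2, of 11 ERK feedback genes 7 lay lower and 3 higher, and of 22 other immediate early genes 6 lay lower and 7 higher. Both stand beside 18.2% lower and 15.9% higher of all genes tested. DUSP1, a phosphatase of ERK, p38 and JNK that is itself an immediate early gene, stood at 106 to 128 FPKM in ACHN repeat 2 against 36.1 to 55.1 in the others, and at 88.9 to 103 in 769-P repeat 1 against 48.3 to 52.4. In 769-P repeat 1, 5 of 9 heat shock genes lay above all other libraries of the line and none below, with HSPA1A at 52.8 to 64.6 FPKM against 23.1 to 46.9 (10.4% of all genes tested lay above). Other repeats differed in heat shock genes as well. Below all others lay 5 of 9 in 769-P repeat 2 (7.32% of genes) and 6 of 9 in ACHN repeat 3 (10.9%). Above all others lay 4 of 9 in ACHN repeat 1 (18.1%), and in these 3 repeats none went the other way. COL1A1 and PDGFRB also lay higher in ACHN repeat 2 than in the other libraries, at up to 3.87 and 2.79 FPKM. What a repeat number stands for is not given in the sources used here, and its part in these levels was not tested.

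As deviations from group means over the 12 libraries, FOS and EGR1 moved with a Pearson r of 0.82, which became −0.09 over the 10 libraries without ACHN repeat 2. JUNB moved with IER2 (0.83, and 0.73 without that pair) and with EGR1 (0.84 and 0.66). FOSL1 and JUND moved in opposite directions, with r of −0.77 over 12 and −0.91 over 10 libraries. The points share library and repeat, so these are descriptions. Among 12804 genes with a mean of at least 1 FPKM (which include JUN and EGR1 but not FOS), those most like FOS were IER5L (0.99), CELSR2 (0.99), CACNA1H (0.98), HS6ST1 (0.98) and AL645608.1 (0.97). Of these, IER5L, an immediate early response family gene, kept 0.96 over the 10 libraries and the others 0.74 to 0.85. Those most like JUN were ALYREF (0.97), RPS6KA4 (0.96), UAP1L1 (0.96), DDX39A (0.96) and RAD54L (0.96), and those most like EGR1 were RARRES2 (0.98), NTMT1 (0.98), BCL7C (0.97), TMEM56 (0.97) and SLC41A1 (0.97).

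Between the lines under si-NC, 4 of 8 tested members differed, against 61.2% of all genes. FOSB, one of the 4, passed the filter only through its ACHN levels, so its place in that count follows from the filter. FOSL2 was higher in ACHN cells by 1.90 on the log2 scale (95% CI 1.55 to 2.24, adjusted p = 6.1e-05), where 32.6% of all genes were higher. FOSB was higher by 2.15 in the fit with no filter (95% CI 1.59 to 2.72, adjusted p = 0.00091). JUNB was lower, at −1.16 (95% CI −1.61 to −0.72, adjusted p = 0.0017) and so was IER2, at −1.08 (95% CI −1.79 to −0.38, adjusted p = 0.0167), where 28.6% were lower. For FOSL2, FOSB, JUNB and IER2 the libraries of the lines did not overlap with either siRNA (68.4% of genes did not under si-NC). FOSL1 had a difference of −0.02 (95% CI −0.69 to 0.66), so its intervals hold changes in both directions, and JUND had 0.76 (95% CI −0.12 to 1.64, adjusted p = 0.114). JUN stood at 0.54 (95% CI 0.03 to 1.06, adjusted p = 0.0651), and passed without ACHN repeat 2 and 769-P repeat 1 (0.79, adjusted p = 0.0203). EGR1 had −0.64 over all libraries (95% CI −3.61 to 2.34, adjusted p = 0.682), and without those libraries −1.34 (95% CI −1.95 to −0.73, adjusted p = 0.00812). IER2 did not pass when 769-P si-NC repeat 1 (adjusted p = 0.058) or repeat 2 (0.0506) was left out.

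The other partners of AP-1 also differed between the lines: all 8 tested of 12 listed were higher in ACHN cells, against 32.6% of all genes, and 7 of the 8 passed with the block. Their median log2 difference was 1.58 beside 0.06 over all genes, with BATF3 among them (2.51, adjusted p = 0.00022). With si-NUF2 none of the 8 passed the 769-P test, with or without the block, and BATF3 alone passed in ACHN cells, with the block (0.35, adjusted p = 0.0494).

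Of 19 tested genes upstream of the immediate early genes, 3 rose and 3 fell in 769-P cells with si-NUF2 without the block, beside 5.45% and 4.64% of all genes. ATF1, a CREB family factor, rose by 0.73 on the log2 scale (adjusted p = 0.0077), and the CREB family member CREB1 fell by 0.43 (adjusted p = 0.0244). MKL1, an SRF coactivator, rose by 0.50 and ELK3, a ternary complex factor, by 0.57 (adjusted p = 0.0367 and 0.0476). With 1 library left out ATF1 passed each time, and the adjusted p reached 0.0847 for CREB1, 0.118 for MKL1 and 0.142 for ELK3. In ACHN cells 4 rose with the block and none fell, beside 6.44% and 5.9% of all genes, among them ATF1 (0.70, adjusted p = 0.0122) and ELK4 (0.50, adjusted p = 0.0244). The list's median was 0.12 for 769-P and 0.06 for ACHN, beside −0.01 over all genes in each.

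ERK feedback genes, which are induced by ERK and dampen it, gave 3 falls and no rise among 14 tested in 769-P cells, where 4.64% of all genes fell. DUSP5 fell by 0.92 (adjusted p = 0.0056), DUSP4 by 0.75 (adjusted p = 0.0365) and DUSP2 by 0.67 (adjusted p = 0.0289), and with the block DUSP6 (−0.85, adjusted p = 0.0066) and SPRY4 (−0.26, adjusted p = 0.0423) fell as well, which makes 5 of 14, where 13.8% of all genes fell. With 1 library left out DUSP5 passed each time, DUSP2 reached an adjusted p of 0.102, and DUSP4 passed in none (adjusted p of 0.0571 to 0.107). In ACHN cells SPRED2 alone of 11 fell with the block (−0.27, adjusted p = 0.032), where 5.9% of all genes fell. The medians were −0.14 and 0.02.

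Among the other immediate early genes 20 were tested in 769-P cells, of which 3 rose and 3 fell, beside 5.45% and 4.64% of all genes. SGK1, a kinase, rose by 1.28 (adjusted p = 0.0275), IER5 by 0.43 (adjusted p = 0.0178) and CSRNP1 by 0.47 (adjusted p = 0.0297). RHOB, a small GTPase, fell by 0.68 (adjusted p = 0.0077), ZFP36, which promotes decay of AU-rich mRNAs, by 0.81 (adjusted p = 0.0343), and MCL1, an antiapoptotic BCL2 family gene, by 0.39 (adjusted p = 0.0322). With 1 library left out RHOB passed each time, CSRNP1 passed in none (adjusted p of 0.0506 to 0.0895), and the adjusted p of SGK1, IER5, ZFP36 and MCL1 reached 0.0901, 0.062, 0.101 and 0.105. With the block 8 rose and 7 fell, beside 13.8% of all genes in either direction. In ACHN cells 4 of 22 rose and 2 fell with the block, beside 6.44% and 5.9% of all genes, among them SGK1 (0.60, adjusted p = 0.0363) and MCL1 (−0.46, adjusted p = 0.0209). The list's median was 0.18 for 769-P and −0.03 for ACHN.

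Of 15 tested AP-1 target genes in 769-P cells, 2 rose and 1 fell without the block, beside 5.45% and 4.64% of all genes. TGFB1 rose by 0.61 (adjusted p = 0.0101) and CCND1, the gene for cyclin D1, fell by 1.01 (adjusted p = 0.0134). With 1 library left out TGFB1 passed each time and CCND1 reached an adjusted p of 0.0506. With the block 4 rose and 2 fell, where 27.7% of all genes passed. There PLAUR (0.55, adjusted p = 0.0124) also rose and ITGA2 (−0.55, adjusted p = 0.016) fell. In ACHN cells 2 of 16 rose and 2 fell with the block, where 12.3% of all genes passed, among them AREG (0.55, adjusted p = 0.0142) and ITGA2 (−0.88, adjusted p = 0.0199). The medians were −0.01 and −0.14. Of 9 heat shock genes tested, DNAJA1 rose in 769-P cells (0.53, adjusted p = 0.0412, and up to 0.12 with 1 library left out), 5 rose and 1 fell there with the block, and HSP90AA1 rose in ACHN cells with the block (0.42, adjusted p = 0.0142). Among the renal epithelial markers, PAX8 fell by 0.44 in 769-P cells (adjusted p = 0.0321), and with the block 2 rose and 3 fell there and 2 rose and 1 fell in ACHN cells, of 7 tested each. The heat shock and renal counts stand beside 10.1% of all genes without and 27.7% with the block in 769-P cells, and 12.3% with it in ACHN cells. PAX8 reached an adjusted p of 0.101 with 1 library left out.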

How the data were processed

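RNA sequencing of 12 libraries was analysed. Per the submitters' processing notes, HISAT2 2.0.5, featureCounts 1.5.0-p3 and hg38 were used. The strand setting and the annotation are not given in the sources used here. Reads had been filtered with fastp per the study's methods. The authors deposited FPKM per gene and library, with no counts. Exon lengths of GENCODE 29 gave whole reads (within 0.02 reads below 500 and 0.1 above) for 95.3% of the 36305 genes above 0, and 26638247 to 35018273 reads per library. FOS, FOSB and EGR2 gave at most 295 reads in any library, and intervals on reads cover counting error only.

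FPKM were scaled by a trimmed mean of log ratios (30% of log ratios, 5% of levels), and log2(FPKM + 0.1) was fitted with limma 3.58.1 (lmFit, eBayes with a trend) in R 4.3.3. Genes needed 0.5 FPKM in at least 3 of the libraries compared. Fold changes understate those of genes near the pseudocount. Each line was fitted alone, the difference in response as an interaction over 12 libraries, and p-values were adjusted over all genes by Benjamini-Hochberg at 0.05. The study names DESeq2, which FPKM do not allow, so limma replaced it, with no block. All 3 same-numbered pairs of each line correlated above 0.1, the mark set for treating the numbers as pairs. The block was fitted to these same libraries, and the labels do not state a pairing. The fits were tested on simulated data. The exact permutation tests were two-sided.

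The members and gene lists were chosen with earlier results of these data known. Genes were named by rule: the members, NUF2, up to 6 genes of a list called in either line with the lowest p, and the 5 genes most like FOS, JUN and EGR1. Some genes that the rule names are not reported here. IL6, CXCL8, DUSP1, HSPA1A, CD44, COL1A1, PDGFRB, LRP2 and CA9 were named after their values were seen. Alternatives were 2 scalings, filters, pseudocounts of 1 and 0.01, the block, 1 fit of 12 libraries and each library left out. limma-voom on recovered reads and the fits without a repeat pair were added after seeing the data. Promoter windows and their sequences are RefSeq's, on GRCh38.p14. Figures and tables used matplotlib 3.10.9, SciPy 1.17.1, pandas 2.3.3 and NumPy 2.4.6 under Python 3.11.15.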

Additional observations from a re-analysis of the deposited data

How the results depend on the processing

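The number of genes called moved most. In 769-P cells 1429 genes were called, and 651 with no filter, 3917 with the replicate block, 695 in one fit of 12 libraries, 4868 by limma-voom with the block, 698 without both repeat 1 libraries and 361 to 1142 with 1 library left out. Members called there were 0, and 3 with the block, 1 each in one fit of 12 libraries (FOSB, which passed that filter only through its ACHN levels), by limma-voom (IER2) and without repeat 1 (FOSL1), 6 by limma-voom with the block and 0 with 1 library left out. In ACHN cells 0 genes were called, and 1864 with the block, 161 in one fit of 12 libraries and 3348 by limma-voom with the block, and members called were 0, 1 with the block and 4 by limma-voom with the block. For the difference in response 0 genes were called, and 15 with no filter, 2 with a pseudocount of 0.01, 218 with the block and 0 to 1 with 1 library left out. Between the lines 9408 genes were called, and 6184 with at least 1 FPKM in all libraries, where fewer genes were tested. In that comparison the block, whose numbers were not checked for pairing across lines, brought JUN past the threshold (adjusted p = 0.00798) and changed no other member's call.

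Of 535 member values under another setting, 470 kept their direction and side of the threshold, 21 came to pass it, 2 no longer passed and 42 changed direction. With 1 library left out, log2 fold changes with si-NUF2 ran from −0.12 to 0.37 for JUN and −1.01 to 0.41 for EGR1 in 769-P cells, and from −0.067 to 0.15 for FOSL2, −0.13 to 0.12 for JUN, −1.08 to 1.72 for EGR1 and −0.044 to 0.54 for IER2 in ACHN cells. Without a change of direction, 769-P values ran from 0.14 (without si-NUF2 repeat 1) to 0.66 (without si-NC repeat 1) for FOSL1, −0.87 (without si-NUF2 repeat 2) to −0.43 (without si-NUF2 repeat 1) for JUND and −0.32 to −0.012 for JUNB, and ACHN values from 0.025 to 0.57 for FOSL1 and −0.77 to −0.029 for JUND. These are fits without the block. FOSL2 in ACHN cells was −0.014 without both repeat 2 libraries. The differences in response ran from −0.90 to 1.03 for FOS (−0.00344 with a pseudocount of 1), −0.36 to 0.18 for FOSL1, −0.17 to 0.052 for FOSL2, −0.38 to 0.10 for JUN, −0.074 to 0.67 for JUND and −0.77 to 2.03 for EGR1. Between the lines FOSL1 ran from −0.24 to 0.25 (0.30 without the repeat pairs) and EGR1 from −2.08 to 0.20. The causes were not tested. FOS gave 17 to 295 reads per library, FOSB 20 to 253 and EGR2 1 to 26, and EGR1 and FOS spread widely between repeats.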
